A study of Mus musculus with 8 samples.

Results

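Lysosome and autophagy genes were described in mouse embryonic stem cell (ESC) lines with and without Zfp281, a zinc finger transcription factor. The list holds 45 genes chosen by name for their place in the lysosome or in autophagy, of 18193 genes measured, and 44 of them were measured. Cd63, a tetraspanin of late endosomes, matched no named probe set in the annotation used and was not analysed here. The ESCs came from 8 lines with 1 Affymetrix mouse genome array each, namely Zfp281 wild-type lines 3, 3.2 and 3.3, Zfp281 heterozygous lines 5 and 3.1, and Zfp281 deficient (null) lines 7, 3.34 and 3.38. The targeted allele lacks both Zfp281 exons, a floxed neomycin resistance cassette that Cre can remove took their place, and both alleles are null in the null lines. Whether a given line kept the cassette is not stated in the labels. The lines were derived from blastocysts, each is 1 derivation, and all were grown with LIF in serum on primary mouse embryonic fibroblasts without further treatment, so feeder RNA can be part of each sample, and the strain and age of the embryos are not stated in the labels.

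Lysosomes are acidic organelles that break down proteins, glycans, lipids and nucleic acids delivered by endocytosis or by autophagy. A proton pump, the V-ATPase, acidifies them, heavily glycosylated membrane proteins such as Lamp1 and Lamp2 line them, and hydrolases of many classes work inside. In autophagy a double membrane coated with Atg8 family proteins encloses cytoplasm and fuses with the lysosome. Many of these genes carry in their promoters a palindromic element named CLEAR, which is bound by the factors Tfeb and Tfe3. The Rag GTPases and the Flcn, Fnip1 and Fnip2 proteins control these factors at the lysosome surface, and Tfe3 is known in mouse ESCs as a factor that delays the exit from self-renewal.

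Values are RMA log2 values, read for each gene on the probe set that was brightest on average over the 8 arrays, and they are listed throughout in the order of lines given above. The 3 genes that passed the test in null against wild-type ESCs are shown first by sequence, as the 250 bases before the start site in the RefSeq annotation of GRCm38.p6. Lamp2 lies on the minus strand (chrX:38456461-38456710), Npc2 on the minus strand (chr12:84773113-84773362) and Glb1 on the plus strand (chr9:114400828-114401077). Each is written 5′ to 3′ along the gene, and capitals mark the CLEAR core, searched as TCACGTG and as CACGTGA on the other strand. Only the Glb1 promoter of these 3 holds it.
Lamp2: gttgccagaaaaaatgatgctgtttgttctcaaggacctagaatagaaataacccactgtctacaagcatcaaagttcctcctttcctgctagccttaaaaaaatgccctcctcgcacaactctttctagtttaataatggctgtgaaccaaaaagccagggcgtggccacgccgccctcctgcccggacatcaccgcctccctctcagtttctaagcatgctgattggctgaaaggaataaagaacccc
Npc2: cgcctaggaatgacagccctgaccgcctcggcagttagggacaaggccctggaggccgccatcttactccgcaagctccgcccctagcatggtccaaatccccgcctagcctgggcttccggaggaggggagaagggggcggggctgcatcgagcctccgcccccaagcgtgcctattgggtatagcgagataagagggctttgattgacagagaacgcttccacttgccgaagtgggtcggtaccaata
Glb1: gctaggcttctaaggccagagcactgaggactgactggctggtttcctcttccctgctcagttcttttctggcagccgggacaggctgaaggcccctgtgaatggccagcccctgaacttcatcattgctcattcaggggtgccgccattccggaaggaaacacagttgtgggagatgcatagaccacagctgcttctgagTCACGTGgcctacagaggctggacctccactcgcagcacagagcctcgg

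A window of 250 bases before to 50 bases after the start site was held for 38 of the 45 genes. The core was found in 13 of these 38 windows (34.2%), in 17 of 92 windows of other lysosome and autophagy genes (18.5%) and in 4.29% of 27025 genes with a window. The full palindrome TCACGTGA, which contains the core, was found in 7 of the 38 genes (18.4%) and in 1.12% of all genes. Windows of Lamp1 (chr8:13159088-13159116), of the protease gene Ctsd (chr7:142387908-142387937), of the glycosidase gene Gla (chrX:134601182-134601211) and of the V-ATPase gene Atp6v0d1 (chr8:105566050-105566079) show the element with its flanks, again 5′ to 3′ along the gene with the match in capitals. These were chosen as 1 window for each of 4 roles.
Lamp1: agggcaagataTCACGTGgtccagcgccc
Ctsd: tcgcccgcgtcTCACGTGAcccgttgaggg
Gla: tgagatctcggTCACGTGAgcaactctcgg
Atp6v0d1: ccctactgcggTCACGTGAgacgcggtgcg
Ctsd, Gla and Atp6v0d1 hold the whole palindrome in these windows, and the Lamp1 window holds the core alone. Lamp1 had 4 matches in its promoter, the most among the 38 genes with a window, and Ctsa, Ctsd, Gla, Cln3 and Mcoln1 had 2 each. A match describes the letters of the window and not a bound site.

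On the detection calls of the arrays, 33 of the 44 genes were called present in all 8 lines and 6 in some lines. The remaining 5, Mcoln1, Neu1, Naglu, Sgsh and Atp6v0a1, were present in no line on the probe set used, and Naglu and Sgsh on none of their probe sets, so the differences of these 5 genes lie within background. The highest mean values were those of Laptm4b, Grn and Ctsl, and the lowest those of Sgsh, Naglu and Gla, an order of probe set signals that does not rank the transcripts. The median value over the 44 genes lay between 6.80 in heterozygous line 5 and 7.14 in null line 7. The lines of a genotype differed more for these genes than for genes at large, with a median SD of 0.22 in wild-type and 0.25 in null lines against 0.14 and 0.15 over all genes, those not detected included. Wild-type line 3.3 was the highest of the wild-type lines for 23 of the 44 genes, and null line 7 was the highest of all lines for 12 and the lowest for 8.

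**Figure D1:**
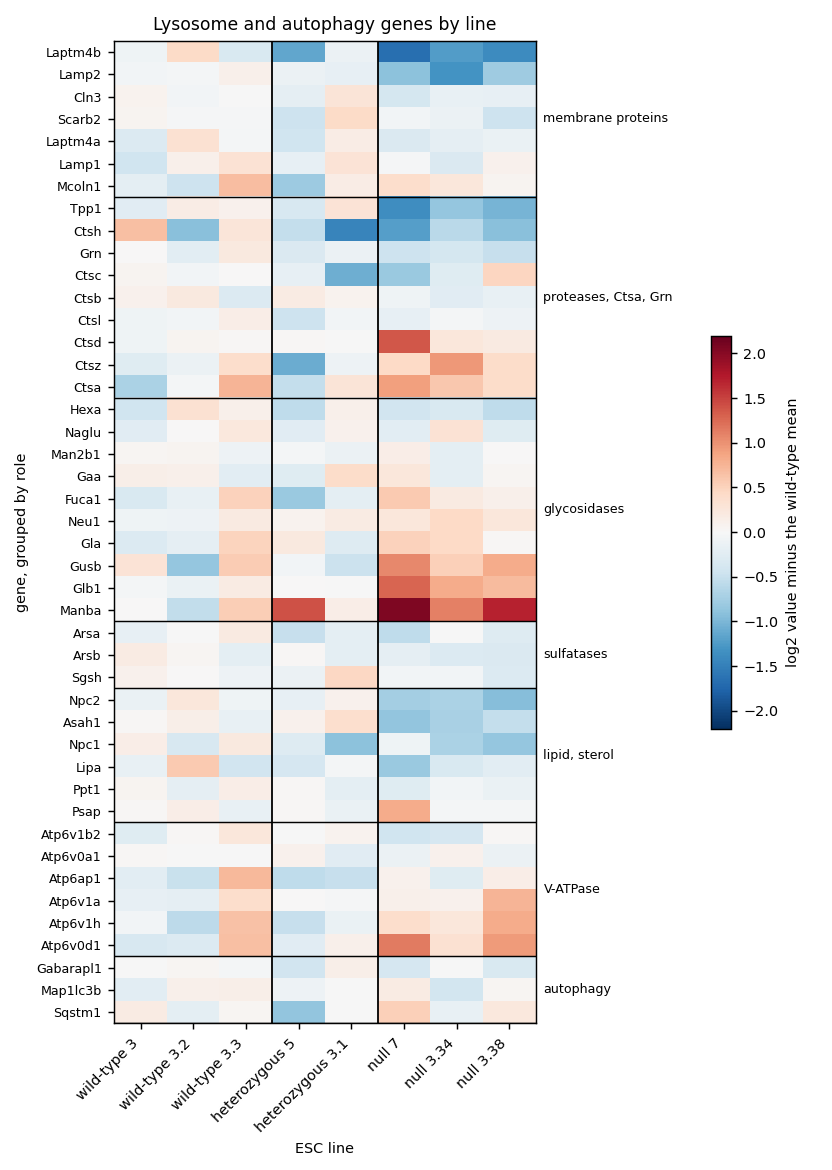
Difference of each line's log2 value from the wild-type mean (colour scale) for the 44 measured genes (rows, grouped by role) in the 8 ESC lines (columns). Lamp2, Laptm4b, Tpp1, Npc2 and Asah1 were blue in all 3 null lines, Glb1 and Manba red in all 3, and most other rows stayed pale or differed from line to line.

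Between null and wild-type ESCs most genes of the list changed little, and single genes of several roles differed in opposite directions. No test over the list as a whole was made. Lamp2 and Npc2 fell and Glb1 rose at an adjusted p under 0.05 by limma, 3 of 44 genes (6.82%) against 1.13% of all genes tested (0.693% higher and 0.440% lower in null lines). Which genes passed changed with the settings given below, where Tpp1 and Laptm4b passed in several. By role, 1 of 10 glycosidases, 1 of 7 membrane proteins and 1 of 6 lipid and sterol genes passed, and none in the other roles. The null mean was above the wild-type mean for 16 of the 44 genes and below it for 28, and it was above for 46.8% of all genes. The median log2 fold change was −0.10 against −0.01 over all genes, and 30 genes changed by less than 0.5. Lines of the 2 genotypes did not overlap for 13 genes (29.5%), 5 higher and 8 lower in null lines, against 22.4% of all genes, 11.1% higher and 11.2% lower. A log2 fold change past 2-fold was reached by 3 genes, Manba upward and Tpp1 and Laptm4b downward, against 2.47% of all genes (1.37% higher and 1.10% lower), and without a correction for multiple tests 11 genes had p under 0.05 against 16.4% of all genes. In these bulk samples, fewer cells of a type and less RNA per cell cannot be told apart.

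Among the 7 membrane proteins Lamp2, which with Lamp1 makes up much of the lysosome's membrane protein and serves in chaperone-mediated autophagy, was the one that passed the test. The wild-type lines read 9.02, 9.03 and 9.18 for it, the heterozygous lines 8.94 and 8.90, and the null lines 8.17, 7.77 and 8.30. All null lines lay below all other lines, by a 2.00-fold difference of the genotype means (log2 fold change −1.0, SE 0.15, adjusted p = 0.0370 from limma). Its 3 other probe sets, all present in every line, gave −1.03, −0.70 and −0.37, and the mean over its probe sets gave −0.77 (adjusted p = 0.105 from limma). Lamp1 was the contrast, at 9.29, 9.84 and 10.05 in wild-type and 9.70, 9.41 and 9.82 in null lines, with a log2 fold change of −0.08 (95% interval −0.58 to 0.42). Its null lines lay inside the wild-type range.

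Lamp2 lies on the X chromosome, and the lines differed in the Y-linked gene Eif2s3y, which was present in wild-type lines 3 and 3.2 and heterozygous line 3.1 and in no null line. This difference between null and wild-type lines applies to genes of every chromosome, and its part in the values was not tested. Among the 5 lines without Eif2s3y, Lamp2 was 9.18 in wild-type line 3.3, 8.94 in heterozygous line 5 and 7.77 to 8.30 in the null lines, so the null lines were lowest there too. The 206 X-linked genes present on all arrays had a median log2 fold change of −0.07 for null against wild-type lines. Their mean log2 value, set against each gene's mean over the 8 arrays, was 0.37 in wild-type line 3.3, 0.38 in heterozygous line 5, and −0.10, −0.39 and 0.26 in null lines 7, 3.34 and 3.38, while in the lines with Eif2s3y it was −0.17, −0.11 and −0.25. Among the lines without Eif2s3y the X-linked mean was thus lower in the null lines too, and null line 3.34 was lowest both there and for Lamp2. Of the other X-linked genes of the list, Gla, the alpha-galactosidase, had a log2 fold change of 0.33 and the V-ATPase accessory subunit Atp6ap1 one of −0.01. The part of the X chromosome in the Lamp2 result was not tested.

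Laptm4b, a tetraspanning membrane protein of late endosomes and lysosomes, had the largest decrease of the 44 genes. The wild-type lines read 11.56, 12.08 and 11.32, the heterozygous lines 10.51 and 11.52, and the null lines 10, 10.43 and 10.27. The null lines lay below every other line, with heterozygous line 5 just above them, and the log2 fold change of −1.42 (SE 0.28) missed the threshold at an adjusted p of 0.0574 from limma. Its other probe sets gave −1.46 and −0.62. The probe set used and the one at −1.46 are both of a type that can bind related transcripts. The one at −0.62 is not, and had an adjusted p of 0.313 when limma was fitted to every probe set, with −0.12 for null against heterozygous lines. The homologous Laptm4a had a log2 fold change of −0.21, the lysosomal receptor Scarb2 −0.22, the Batten disease protein Cln3 −0.24 and the calcium channel Mcoln1 0.23. In 4 of the 7 membrane genes, Lamp2, Laptm4b, Scarb2 and Cln3, the null lines lay below all wild-type lines, against 11.2% of all genes, and the Cln3 probe set used was present in 1 heterozygous line alone. The second Scarb2 probe set gave the opposite sign, 0.95.

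**Figure D2:**
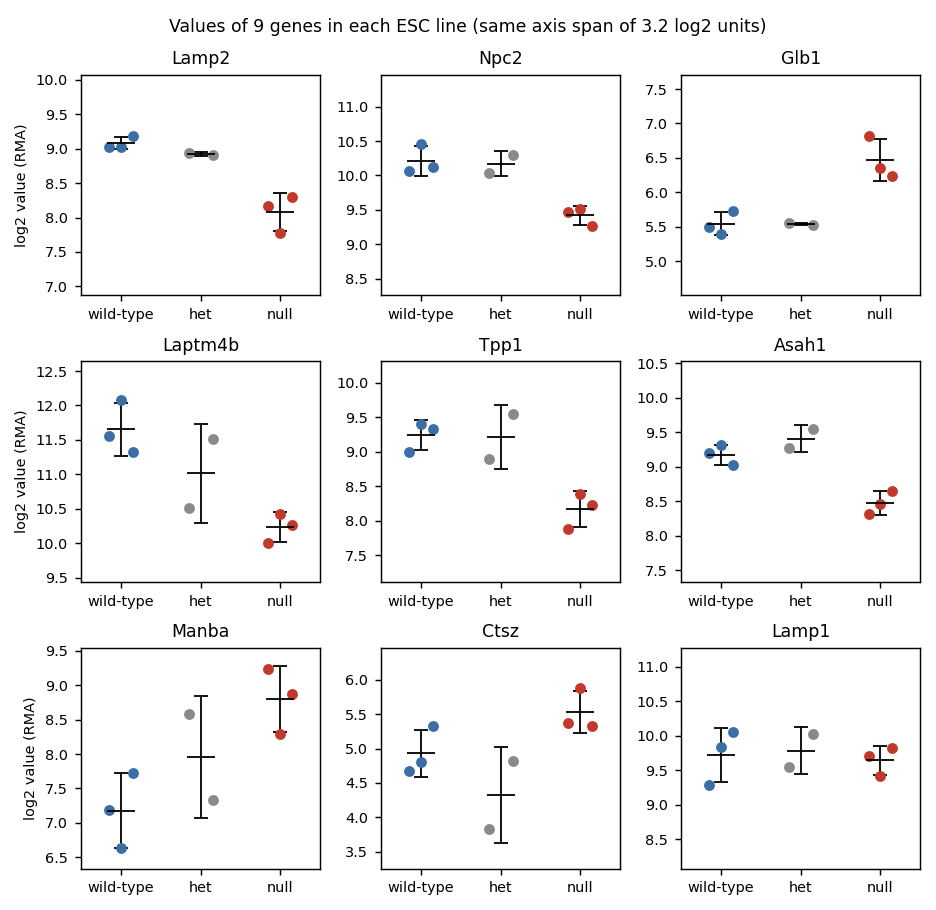
Log2 values of 9 genes (vertical axis, the same span in each panel) in each line of the 3 genotypes (points), with the mean and SD of each genotype (bars). The null lines lie apart from all wild-type lines in each panel but Lamp1, with 5.33 against 5.32 as the narrowest gap for Ctsz, and the heterozygous lines lie near the wild-type lines for Lamp2, Npc2, Glb1, Tpp1 and Asah1.

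Npc2, a soluble protein that binds cholesterol inside the lysosome, fell in null ESCs. The wild-type lines read 10.06, 10.46 and 10.12, the heterozygous lines 10.04 and 10.30, and the null lines 9.47, 9.52 and 9.27. The null lines lay below all 5 others (log2 fold change −0.79, SE 0.14, adjusted p = 0.0468 from limma). A weaker Npc2 probe set that was present in every line gave 0.35, so the direction of Npc2 rests on the probe set used, and the mean over all its probe sets gave −0.07 (adjusted p = 0.838 from limma). Asah1, the acid ceramidase, was 9.20, 9.31 and 9.02 in wild-type, 9.27 and 9.55 in heterozygous, and 8.31, 8.46 and 8.65 in null lines. These did not overlap either, and its log2 fold change was −0.70 (SE 0.14, adjusted p = 0.0528 from limma). The null mean was below the wild-type mean for 5 of the 6 lipid and sterol genes, and the median log2 fold change was −0.50. The cholesterol transporter Npc1 had −0.55, the acid lipase Lipa −0.46, the palmitoyl thioesterase Ppt1 −0.16 and the saposin precursor Psap 0.24, each with overlapping lines. Psap stood at 8.01 in null line 7 and between 7.03 and 7.34 in all others.

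Glb1, the beta-galactosidase of lysosomes, rose in null ESCs. The wild-type lines read 5.50, 5.40 and 5.73, the heterozygous lines 5.55 and 5.53, and the null lines 6.82, 6.36 and 6.24. It was called present in 1 of 3 wild-type lines, in neither heterozygous line and in all 3 null lines. The null lines were above all others, with a log2 fold change of 0.93 against wild-type (SE 0.16, adjusted p = 0.0467 from limma). Against the heterozygous lines, where Glb1 was not called present, it was 0.93 as well (SE 0.18, adjusted p = 0.0782 from limma). That is a 1.91-fold difference of the means, an estimate and not a lower bound.

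Manba, the beta-mannosidase, had the largest increase of the 44 genes. It was 7.19, 6.63 and 7.72 in wild-type, 8.58 and 7.33 in heterozygous, and 9.24, 8.29 and 8.87 in null lines. The null lines lay above the wild-type lines, but heterozygous line 5 lay among them (log2 fold change 1.62, SE 0.39, adjusted p = 0.0862 from limma). With the gap between 3′ and 5′ control probes, a measure of RNA quality, as a covariate it was 0.20 (SE 0.57), and with single lines left out 1.34 to 1.89. The glucuronidase Gusb, at 0.80 (adjusted p = 0.290 from limma), overlapped because wild-type line 3.2 was at 4.11 and wild-type line 3.3 at 5.51, above null line 3.34 at 5.48. Of the 10 glycosidases 7 had a higher null mean, against 46.8% of all genes, at a median change of 0.30. With the same covariate 5 did, at a median of −0.03, where Glb1 was at 0.30, Gusb at −0.08 and Gla at −0.42. In 3 of the 10, Glb1, Manba and Neu1, the lines did not overlap, with null lines higher, against 11.1% of all genes. Neu1, the sialidase, was within background with 0.31. The fucosidase Fuca1 had 0.29, the acid glucosidase Gaa 0.02, the mannosidase Man2b1 −0.02, Naglu, a glucosaminidase of heparan sulfate breakdown, −0.06 and Hexa, a hexosaminidase subunit, −0.44. The 3 sulfatases Arsa, Arsb and Sgsh had −0.28, −0.27 and −0.14, with overlapping lines.

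Proteases and their partners moved in both directions, and none of the 9 passed the test. Tpp1, the tripeptidyl peptidase, was 9.0, 9.40 and 9.33 in wild-type, 8.89 and 9.54 in heterozygous, and 7.88, 8.39 and 8.22 in null lines. All null lines were below all others, by a log2 fold change of −1.08 (SE 0.21, adjusted p = 0.0527 from limma). A second probe set of Tpp1 gave −0.48. Grn, the granulin precursor, had −0.45 (SE 0.13, adjusted p = 0.131 from limma), with null lines between 10.26 and 10.37 and the wild-type lines between 10.53 and 10.98.

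Ctsz, a carboxypeptidase, differed by probe set more than any other gene of the list. On the probe set used it was 4.67, 4.80 and 5.32 in wild-type, 3.83 and 4.82 in heterozygous, and 5.37, 5.88 and 5.33 in null lines, a log2 fold change of 0.60 (adjusted p = 0.352 from limma). Its 2 other probe sets gave 1.79 (adjusted p = 0.0723) and 1.76 (adjusted p = 0.0905) when limma was fitted to every probe set, with null values of 5.17 to 6.18 against wild-type values of 3.32 to 4.89. All 3 probe sets therefore placed the null lines above the wild-type lines, by different amounts. Ctsd, the main aspartyl protease of lysosomes, had a log2 fold change of 0.60 that came largely from null line 7, at 8.58, with the other null lines at 7.47 and 7.41 and all other lines at 7.13 to 7.27. Ctsa, the protective protein of Glb1 and Neu1, had 0.64 with wild-type lines spread from 5.08 to 6.52. The cysteine proteases Ctsb, Ctsc, Ctsh and Ctsl had −0.17, −0.21, −0.91 and −0.11. Ctsh had the widest spread among the wild-type lines, at 6.75, 5.18 and 6.36, and its second, less bright probe set, present in all null lines, gave 0.04. A second, less bright probe set of Ctsb, present in the null lines alone, gave 0.88.

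**Figure D3:**
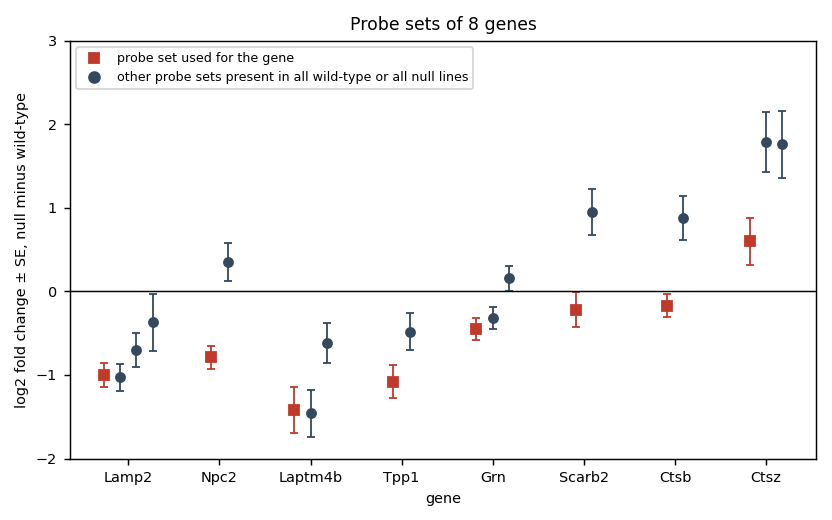
Log2 fold change with SE of null against wild-type lines (vertical axis) for the probe sets of 8 genes (horizontal axis). Squares are the probe sets used, and circles are others present in all wild-type or all null lines. Those of Lamp2, Laptm4b, Tpp1 and Ctsz share a sign, and those of Npc2, Grn, Scarb2 and Ctsb lie on both sides of 0.

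Probe sets of 1 gene could be compared for 14 genes, which had 20 further probe sets that were detected. Of these 12 had the sign of the probe set used and 8 the opposite sign. For Lamp2, Laptm4b and Tpp1, whose log2 fold change was −1.0 or lower on the probe set used, every such probe set was lower in null lines. Glb1, Asah1 and Manba had no further detected probe set.

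Subunits of the V-ATPase and the autophagy proteins did not pass the test. Atp6v0d1, a subunit of the membrane sector, was 6.13, 6.19 and 7.15 in wild-type, 6.24 and 6.60 in heterozygous, and 7.64, 6.83 and 7.42 in null lines. Wild-type line 3.3 lay among the null lines, and the log2 fold change of 0.81 had an adjusted p of 0.230 from limma. Atp6v1a and Atp6v1h, of the sector that uses ATP, had 0.32 and 0.49, Atp6v1b2 of the same sector had −0.26, and Atp6v0a1 had −0.06. Between null and wild-type ESCs no V-ATPase subunit of the list had lines that did not overlap. Between null and heterozygous ESCs 4 of the 6 did, Atp6v0d1, Atp6v1a, Atp6v1h and Atp6ap1. All 4 were higher in null lines, against 13.3% of all genes. The cargo receptor Sqstm1 had a log2 fold change of 0.20 (95% interval −0.37 to 0.78), the Atg8 protein Map1lc3b −0.06 (95% interval −0.45 to 0.33) and its relative Gabarapl1 −0.24 (95% interval −0.61 to 0.13). All 3 were present in every line, and a change of 2-fold lies outside each of these intervals.

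**Figure D4:**
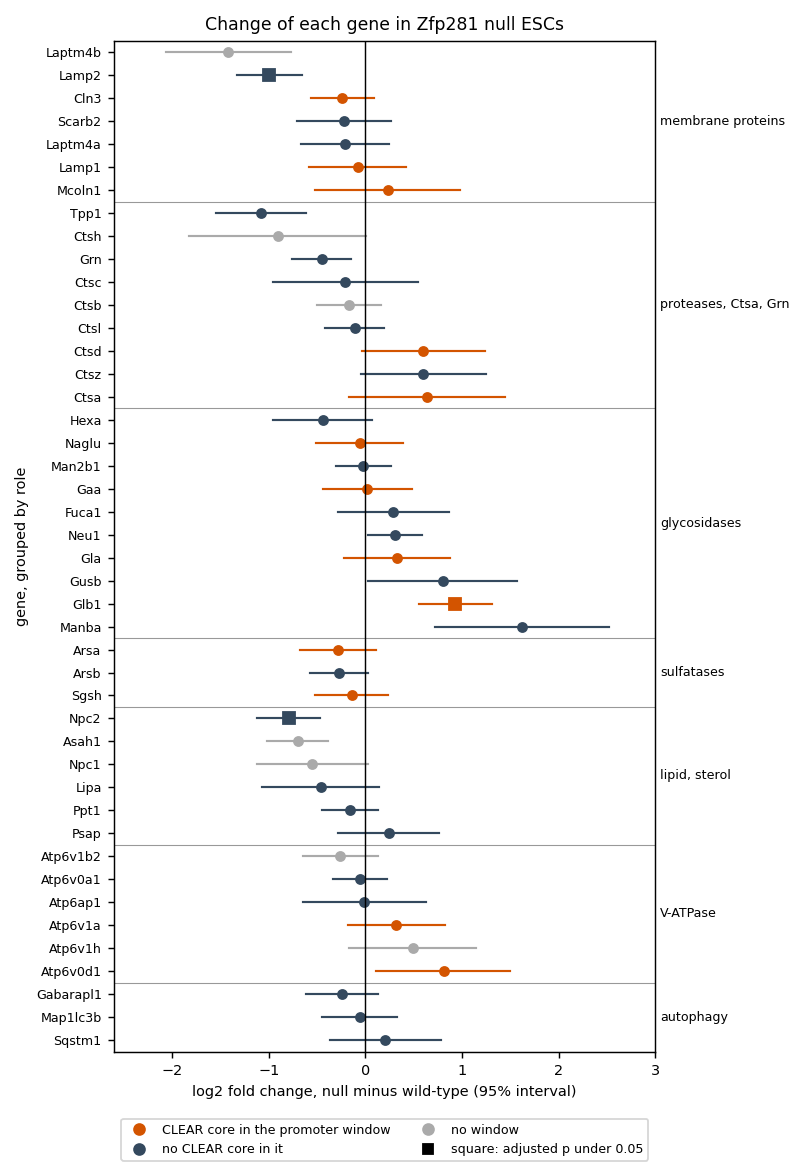
Log2 fold change of null against wild-type lines with its 95% interval (horizontal axis) for the 44 genes grouped by role. Squares mark Lamp2, Npc2 and Glb1, which passed the test, and colour marks whether the promoter window holds the CLEAR core. The genes that hold it lie between −0.28 and 0.93.

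The genes with a CLEAR core in the promoter window were compared with those without it by their values alone. The 13 with the core had a higher mean in null lines for 8 and a lower one for 5, with a median log2 fold change of 0.23 and a range of −0.28 to 0.93. The 24 measured genes with a window but no core had a higher mean for 7 and a lower one for 17, a median of −0.14 and a range of −1.08 to 1.62. Of the 3 genes that passed, Glb1 shown above holds the core and Lamp2 and Npc2 do not, nor does Tpp1. Lamp1, with 4 matches, had a log2 fold change of −0.08. With the 3′ minus 5′ covariate the 13 genes had a higher null mean for 7 and a lower one for 6, at a median of 0.02, with Ctsa, Ctsd, Gla and Atp6v0d1 now lower, and the 24 had 8 and 16, at a median of −0.15. Of the 13, Mcoln1, Naglu and Sgsh were within background. No test was made between these sets, which overlap widely. A variant of the core, TCATGTG, was searched as well and found in 6 of the 38 windows (15.8%), against 4.31% of all genes. These were Ctsa, Gla, Scarb2, Ppt1, Tpp1 and Grn. The null mean was higher for 2 of the 6 and lower for 4, at a median log2 fold change of −0.19, and no test was made of them.

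Heterozygous ESCs did not differ detectably from wild-type ESCs in any of the 44 genes. None of the 18193 genes passed in this comparison by limma (0% of all genes, with 3.85% at p under 0.05 before adjustment and a smallest adjusted p of 0.209), and none of the 44 had p under 0.05 before adjustment. No gene of the list was past 2-fold, against 0.335% of all genes. The log2 fold changes ran from −0.99 for Ctsh to 0.77 for Manba, with a median of −0.09 against 0.01 over all genes. The heterozygous mean was below the wild-type mean for 34 of the 44 genes and above it for 10, and it was above for 51.3% of all genes. No test over the list was made. The lines did not overlap for 4 genes, Lamp2, Ctsc, Arsa and Atp6ap1, all lower in heterozygous lines, against 17.3% of all genes (8.83% lower). For Lamp2 that difference was −0.16 (95% interval −0.53 to 0.22), and for Npc2 and Glb1 it was −0.05 (95% interval −0.41 to 0.32) and 0.00 (95% interval −0.42 to 0.42).

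In null against heterozygous ESCs no gene of the array passed the threshold by limma either (0% of all genes, with 13.8% at p under 0.05 before adjustment and a smallest adjusted p of 0.0529). This comparison shares its null lines with the first one. Of the 44 genes 11 had p under 0.05 before adjustment. Lines did not overlap for 18 genes, 11 with null lines higher and 7 lower, against 27.9% of all genes (13.3% higher and 14.5% lower). Past 2-fold were Ctsz at 1.21, Gusb at 1.06 and Tpp1 at −1.05, against 2.42% of all genes. Lamp2 was at −0.84 (adjusted p = 0.0760 from limma), Asah1 at −0.94 (adjusted p = 0.0598 from limma) and Npc2 at −0.75 (adjusted p = 0.0871 from limma). The genes whose values across the 8 lines were most like those of Lamp2 were Asah1 (Pearson correlation 0.843), Npc2 (0.837) and Tpp1 (0.824), a likeness over 8 arrays that contain the genotypes.

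Other genes of the pathway, 118 listed and 112 measured, gave 3 that passed the test in null against wild-type ESCs (2.68%, against 1.13% of all genes). The lists of these genes were written with earlier results of these data known, so their shares describe the lists and test nothing. All but Atg101 of the 3 belong to the regulators of Tfeb and Tfe3. Rragd, a Rag GTPase, was 6.21, 6.92 and 6.58 in wild-type, 4.93 and 4.81 in heterozygous, and 3.47, 3.48 and 3.44 in null lines. It fell by 3.10 on the log2 scale (SE 0.17, adjusted p = 0.000844 from limma), its heterozygous lines lay between the others, and the mean over its probe sets gave −1.09. Fnip1, the partner of folliculin, was 6.45, 6.82 and 6.58 in wild-type, 5.80 and 6.52 in heterozygous, and 5.16, 4.70 and 5.54 in null lines. It fell by 1.48 on the log2 scale (SE 0.25, adjusted p = 0.0444 from limma).

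In the list of TFE factors and their regulators 6 of 9 genes had lines that did not overlap, against 22.4% of all genes, 5 of them lower in null lines, against 11.2%, and the median log2 fold change was −0.63. This list, which holds Rragd, was written with earlier results of these data known, so these counts are no test of it. Folliculin itself (Flcn) had −0.72 (adjusted p = 0.0574 from limma), Fnip2 −0.63 (adjusted p = 0.129 from limma) and Rragc −0.81 (adjusted p = 0.107 from limma), which did not pass. Of the factors, Tfe3 was present in every line and had −0.01, and Tfeb and Tfec were present in none. Mitf was 4.49, 4.20 and 4.59 in wild-type, 6.55 and 4.39 in heterozygous, and 5.83, 4.95 and 6.45 in null lines, with a log2 fold change of 1.31 (adjusted p = 0.272 from limma). Its values in heterozygous line 5 and null line 3.38 were the highest.

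Of 39 genes of the autophagy machinery 1 passed the test, Atg101, a subunit of the Ulk1 kinase complex, and the median log2 fold change was 0.08. It was 4.38, 4.18 and 4.32 in wild-type, 4.30 and 3.99 in heterozygous, and 5.21, 4.90 and 4.99 in null lines. It was present in no wild-type or heterozygous line and in 2 of 3 null lines. The null mean was 1.67-fold of the wild-type mean (log2 fold change 0.74, SE 0.13, adjusted p = 0.0467 from limma). That is an estimate and not a lower bound. Wipi1, which binds the forming membrane, had −0.85 (adjusted p = 0.0794 from limma) and the Atg8 relative Gabarapl2 1.33 (adjusted p = 0.117 from limma), in both cases with lines that did not overlap. The log2 fold change of Pik3c3 was 0.57 (adjusted p = 0.0881 from limma), with lines that did not overlap either. Of 9 further V-ATPase subunits none passed, and 4 had lines that did not overlap, against 22.4% of all genes. Atp6v1g1 had −1.14, Atp6v0b −0.99, Atp6v1d −0.86 and Atp6v1f 0.84. None passed among 20 further hydrolases and cofactors, 20 further membrane proteins and 15 genes of enzyme sorting, with medians of −0.11, −0.06 and −0.19. Those with the smallest p are given next, and Dnase2a and Laptm5 below. Lgmn had 0.69 and Ctsk −0.30 among the hydrolases. Mfsd1 had −0.59 and Pip4p1 −0.34 among the membrane proteins. Vps26a had −0.61, Gga2 0.64 and Gnptg 0.52 among the sorting genes.

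**Figure D5:**
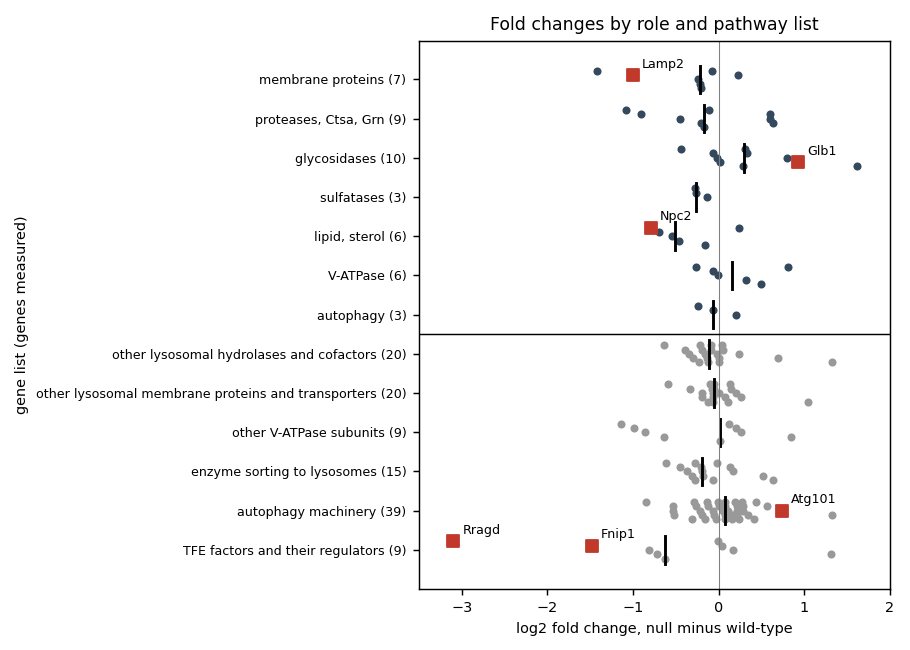
Log2 fold change of null against wild-type lines (horizontal axis) of each gene in the 7 roles and in 6 lists of other pathway genes (vertical axis, with the number measured), with the median of each as a bar. Squares are the genes that passed the test, 3 in the roles and 3 in the other lists, and most points lie within 1 unit of 0.

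The arrays also differed in technical measures. Between 28.4% and 35.3% of probe sets were present on an array. The gap between the 3′ and 5′ control probes of Gapdh and beta-actin (log2) grows as RNA is broken or copied less far. It averaged 4.61 ± 0.338 (SD, n = 3) for the wild-type, 4.64 ± 0.223 (SD, n = 2) for the heterozygous and 3.30 ± 0.546 (SD, n = 3) for the null lines. All null lines (2.68 to 3.71) lay below all wild-type lines (4.23 to 4.86) and heterozygous lines (4.49 to 4.80). The gap thus set the null lines apart from all others, as the values of Lamp2, Npc2, Glb1, Tpp1 and Asah1 did. With 3 lines against 3, a two-sided exact permutation test gives p = 0.1, the smallest it can give. With this gap as a covariate Lamp2 was at −1.31, Npc2 at −0.71 and Glb1 at 0.30, and no gene of the array passed by limma, where 462 genes had p under 0.05 before adjustment. Without null line 7, wild-type line 3 or wild-type line 3.2, none of the 44 genes passed, and of all 18193 genes only 3, 2 and 4 did. Without wild-type line 3.3 none of the 44 passed either, against 208 of all genes (1.14%). Without null line 3.34 only Lamp2 of the 44 passed, against 0.973% of all genes. Npc2 passed in none of the 8 fits with a line left out. Legends of the study place wild-type line 3 with null line 7, and wild-type line 3.3 with null line 3.38, in the same litters. With litter as a block over these 4 lines, Lamp2 (−0.87, adjusted p = 0.0625), Npc2 (−0.72, adjusted p = 0.0951) and Glb1 (0.91, adjusted p = 0.130) did not pass by limma. Tpp1 (−1.12, adjusted p = 0.0458), Laptm4b (−1.30, adjusted p = 0.0492) and Ctsh (−1.53, adjusted p = 0.0488) passed by limma, 3 of 44 genes against 0.978% of all genes. For Ctsh these 4 lines leave out wild-type line 3.2, at 5.18 within the null range of 4.88 to 5.50. Its second probe set gave 0.04 over all lines, so the Ctsh result rests on the probe set used. Tested on the 7306 genes detected by the array calls, 7 of 37 genes of the list passed, against 6.05% of those 7306, the added ones being Asah1, Tpp1, Laptm4b and Manba.

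Markers of the ESCs and of other cells that the cultures could hold were read as well. The mean over the list was higher in all null lines than in all wild-type lines for the ESC markers. Null and wild-type ranges met at 6.26 for the feeder fibroblast markers and overlapped for the endoderm, trophectoderm and macrophage markers. Of all genes 46.8% had the higher mean in null lines. Null lines had the lower mean for 12 of 15 markers of feeder fibroblasts, and the mean over the list was 6.26 to 6.89 in wild-type, 6.54 to 7.03 in heterozygous and 6.15 to 6.26 in null lines. Of 12 ESC markers 11 were present in all lines and Utf1 in none, and the mean was 8.08 to 8.52 in wild-type, 8.50 to 8.82 in heterozygous and 8.99 to 9.12 in null lines. For 12 of 16 endoderm markers the null mean was below the wild-type mean (5.21 to 6.08 in wild-type, 5.01 to 5.37 in heterozygous and 5.03 to 5.50 in null lines), and of 10 trophectoderm markers 7 did (5.83 to 6.12, 5.51 to 5.86 and 5.20 to 6.16). Of 8 macrophage markers, a cell type rich in lysosomes, the null mean was below the wild-type mean for 5, and the list stood at 4.92 to 5.36 in wild-type, 5.15 to 5.41 in heterozygous and 4.91 to 5.40 in null lines, with Cd14, Fcer1g and Aif1 present in none. Zfp281 itself was 6.72 to 7.93 in wild-type, 6.69 and 6.97 in heterozygous and 3.64 to 5.23 in null lines, and its probe set was called present in 2 of the 3 null lines. No file here says which stretch of the transcript it reads. The part of these cells and of RNA quality in the values above was not tested.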

How the data were processed

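The deposited log2 values, 1 for each probe set and array, were made by the authors with RMA on all 8 arrays, and the submitters' processing notes name RMA and limma without versions. The authors also deposited for each array linear signal values of the Affymetrix software, each with a present or absent call and the p-value behind it. How these were scaled is not stated in any source used here. Genotypes and lines came from the sample labels. Each column of log2 values matched its own array's signal values best. Of 45101 probe sets, 64 controls were left out, and 34945 had 1 gene in the platform annotation, 932 several and 9160 none. For each of 18193 genes the probe set brightest on average was kept. RMA brings the arrays to a common distribution of values, so a change common to all probes of an array is removed.

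Genotypes were compared with lmFit and eBayes of limma 3.58.1 under R 4.3.3 (a mean for each genotype over all 8 arrays), with Benjamini-Hochberg adjustment over all genes at 0.05, and the fit was tested on simulated data. Fold changes past 2-fold (the methods' threshold) and lines that do not overlap were counted beside it. Heterozygous values rest on 2 lines, and the number of lines limits all precision. Lines are separate ESC derivations, so the spread holds line differences and technical error.

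Members, gene lists and promoter motifs were chosen with earlier results of these data known. The list came as given, and its 7 roles, the 6 lists of other pathway genes and the marker lists (ESC, feeder fibroblast, endoderm, trophectoderm, macrophage) were written for this work. Genes of the list were named if they passed, were past 2-fold, were among the smallest p up to 20 in all, had the 3 highest or lowest means, or had probe sets of opposite sign past 0.5. All others of the 44 are accounted for by value. Of other pathway genes, those that passed, up to 3 of each list with the smallest p, and the TFE factors were named. Lamp1, Scarb2, Ctsb and Psap in detail, and Fnip2, Rragc, Gabarapl2 and Atp6v1f, were added after their values were seen. Promoter windows are from RefSeq, GRCm38.p6, which was used for no other coordinates. Alternatives were quantile normalization, the signal values, a trended prior, genes detected only, the mean over probe sets, 2 genotypes in the fit, the 3′ minus 5′ gap as covariate and each line left out. Added after seeing the data were leaving out wild-type line 3.2 with heterozygous line 3.1, the arrays with the lowest present shares, a fit of every probe set, and litter as a block. The last uses 2 pairs of wild-type and null lines that legends of the study give as of the same litters, and the deviations of paired lines from their genotype means correlated at 0.097 and 0.038 over all genes, against 0.050 and −0.039 for the crossed pairs. Further tools were Python 3.11.15, pandas 2.3.3, numpy 2.4.6, scipy 1.17.1 and matplotlib 3.10.9.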

Additional observations from a re-analysis of the deposited data

How the results depend on the processing

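In null against wild-type ESCs 3 genes of the list passed. The count was 0 with the 3′ minus 5′ covariate (0% of all genes) and 7 with detected genes only (6.05% of those genes). It was 1 with the mean of probe sets (Glb1, against 0.759% of all genes) and 2 with quantile normalization (Lamp2 and Tpp1, against 1.02%). The 3 were Lamp2, Tpp1 and Laptm4b with the signal values (against 0.726% of all genes) and with 2 genotypes in the fit (against 0.819%). With the trended prior the 3 were Lamp2, Glb1 and Laptm4b, against 1.14% of all genes. With single wild-type or null lines left out the count was 0 to 2, where 0.011% to 1.14% of all genes passed. Genes past 2-fold numbered 5 with the signal values, 5 without wild-type line 3.2 and heterozygous line 3.1, and 3 to 7 with single lines left out. Leaving out wild-type line 3.3 gave the highest number. In heterozygous against wild-type ESCs 3 genes were past 2-fold without those lines, and 0 to 3 with single lines left out. The median log2 fold change there was −0.26 with the signal values (all genes shifted by −0.24), −0.22 without those lines and −0.22 to −0.01 with single lines left out. In null against heterozygous ESCs 1 gene passed with detected genes only (Asah1, against 2.27% of those genes). With single wild-type or null lines left out 0 to 3 passed. The 3 were Gusb, Asah1 and Npc2 without wild-type line 3.2, against 1.90% of all genes. Past 2-fold were 1 with the mean of probe sets, 6 with the signal values (all genes shifted by 0.27), 6 without those lines and 1 to 6 with single lines left out, and the median was −0.09 with the covariate. With single lines left out, the adjusted p from limma was 0.0381 to 0.129 for Lamp2, 0.0479 to 0.152 for Glb1 and 0.0549 to 0.173 for Npc2. The difference of null from wild-type ESCs (log2) turned sign with the covariate for Gusb (−0.08), Atp6v0d1 (−0.26), Ctsd (−0.50), Ctsa (−0.21), Lipa (0.39), Cln3 (0.09), Sgsh (0.02), Naglu (0.11), Gla (−0.42), Gga2 (−0.09) and Tfec (−0.06). It turned with the mean of probe sets for Neu1 (−0.09), Sgsh (0.04) and Ctsl (0.04), and with the signal values for Naglu (0.04), Gnptg (−0.04), Tfeb (−0.13), Tfe3 (0.21) and Tfec (−0.04). Tfec was at −0.06 without wild-type line 3.2 and heterozygous line 3.1, and with single lines left out Naglu ran from −0.25 to 0.06, Tfe3 from −0.12 to 0.19 and Tfec from −0.06 to 0.12. The cause was not tested. Genes present in no line (Naglu, Sgsh, Tfeb and Tfec among these) have no readable change on these arrays. The labels pair no lines, but legends of the study give 2 pairs from the same litters, and with litter as a block over those 4 lines (1 residual degree of freedom, chosen after seeing the data) the count that passed was again 3 with other genes, Tpp1, Laptm4b and Ctsh in place of Lamp2, Npc2 and Glb1. With this block Lamp2 was at −0.87 and Tfec turned sign, at −0.07.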

Other observations

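Among other lysosomal genes, Dnase2a, the acid nuclease, read 5.92, 6.05 and 6.03 on the wild-type arrays, 7.24 and 6.01 on the heterozygous arrays (lines 5 and 3.1), and 7.36, 7.59 and 7.01 on the null arrays (log2 fold change of null against wild-type 1.32, SE 0.29, adjusted p = 0.0684 from limma). Laptm5, a lysosomal membrane protein best known from blood cells, was 5.96, 6.56 and 6.18 in wild-type, 7.48 and 6.59 in heterozygous, and 7.56, 7.13 and 7.14 in null lines (1.04, SE 0.25, adjusted p = 0.0858 from limma). For both genes heterozygous line 5 lay within the range of the null lines, and so it did for Manba, at 8.58, while heterozygous line 3.1 lay at 7.33 for Manba, within the wild-type range. These genes were set side by side after their values were seen, and the difference between the heterozygous lines was not tested.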
